A study of Mus musculus with 9 samples.

Results

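A group of 115 rows was abundant in 2 of the 3 libraries from mice on a normal diet and nearly absent from the third, out of 39130 rows in the deposited table of read counts. The rows were selected on measured values: a CPM, the count scaled to a common library total, of at least 100 in normal diet vehicle replicates 1 and 3, and of at most 1 in replicate 2. They were followed here through all 9 libraries, to see whether they formed a single co-varying set or several. Each row is a sequence record known only by its GI number, an older numbering of sequence entries. No deposited column gives a name for a GI number, and 0 of them matched a gene number of the RefSeq table (GRCm38.p6) used for names. No gene, pathway, cell type marker or sequence could therefore be named, and the labelled tissue could not be checked against its markers.

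Poly(A) RNA came from white adipose tissue of male mice of the inbred strain C57BL/6, fed and treated for 9 weeks. Mice on the normal diet received vehicle (3 libraries, replicates 1 to 3). Mice on a high fat diet received either vehicle (3 libraries) or B-LGND2 (3 libraries), a compound that, by the title of the series, binds the beta form of the estrogen receptor. The labels give neither a dose nor the fat depot, and the animals' age is not given. The p-values below measure the spread between these libraries, since the labels do not say how libraries correspond to animals.

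White adipose tissue stores triglyceride in adipocytes, and the same depots hold preadipocytes, blood vessel cells and immune cells such as macrophages. A high fat diet is known to enlarge the adipocytes and to increase the number of macrophages. Bulk sequencing reads the RNA of everything in the piece that was taken, so fewer cells of a type and less RNA per cell cannot be told apart.

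Total counts lay between 30067542 and 43129222 per library, so that 1 CPM corresponded to between 30.07 and 43.1 counts. Apart from the 115 rows, between 18393 and 23303 rows reached 1 CPM in a library, with the lowest number in normal diet replicate 2. That library and B-LGND2 replicates 1 and 3 stood apart from the other 6 in what follows.

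The 115 rows held 11.4% of all counts in normal diet replicate 1 (95% Wilson interval 11.34 to 11.36%) and 11.5% in replicate 3, against 0.00332% in replicate 2 (0.00312 to 0.00352%). These 3 values chose the rows and are a description. Within the high fat vehicle group the rows held 6.65%, 1.86% and 2.14% of counts in replicates 1 to 3. With B-LGND2 they held 0.0173% in replicate 1 (0.0169 to 0.0177%), 4.80% in replicate 2 and 0.0198% in replicate 3 (0.0194 to 0.0203%). The rows were thus not missing from a single library alone: their summed share in B-LGND2 replicates 1 and 3 was 655-fold and 572-fold below that in normal diet replicate 1. The high fat groups overlapped, because B-LGND2 replicate 2 lay above high fat vehicle replicates 2 and 3. All intervals cover counting error only, since copies made by PCR are not independent molecules.

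Counted row by row, 94 of the 115 rows were at or under 1 CPM in B-LGND2 replicate 1, and 91 in B-LGND2 replicate 3. In B-LGND2 replicate 2 there were 31 such rows and in high fat vehicle replicate 1 there were 13. In high fat vehicle replicates 2 and 3 there were 0, with lowest values of 12.4 and 5.85 CPM. Both B-LGND2 replicates 1 and 3 were at or under 1 CPM in 87 rows, and 112 rows were under 10 CPM in both. The commonest pattern over high fat vehicle replicate 1 and the 3 B-LGND2 libraries, with 57 rows, was near zero in B-LGND2 replicates 1 and 3 and present in the other pair. A further 18 rows were near zero in all 3 B-LGND2 libraries but not in high fat vehicle replicate 1, and 12 rows in all 4. These 4 libraries were all above 1 CPM in 16 rows. The losses in high fat vehicle replicate 1 and B-LGND2 replicate 2 were nested: all 13 rows near zero in the former were also near zero in the latter, 18 rows were near zero in B-LGND2 replicate 2 alone of the pair, and 0 rows in the vehicle library alone.

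**Figure D1:**
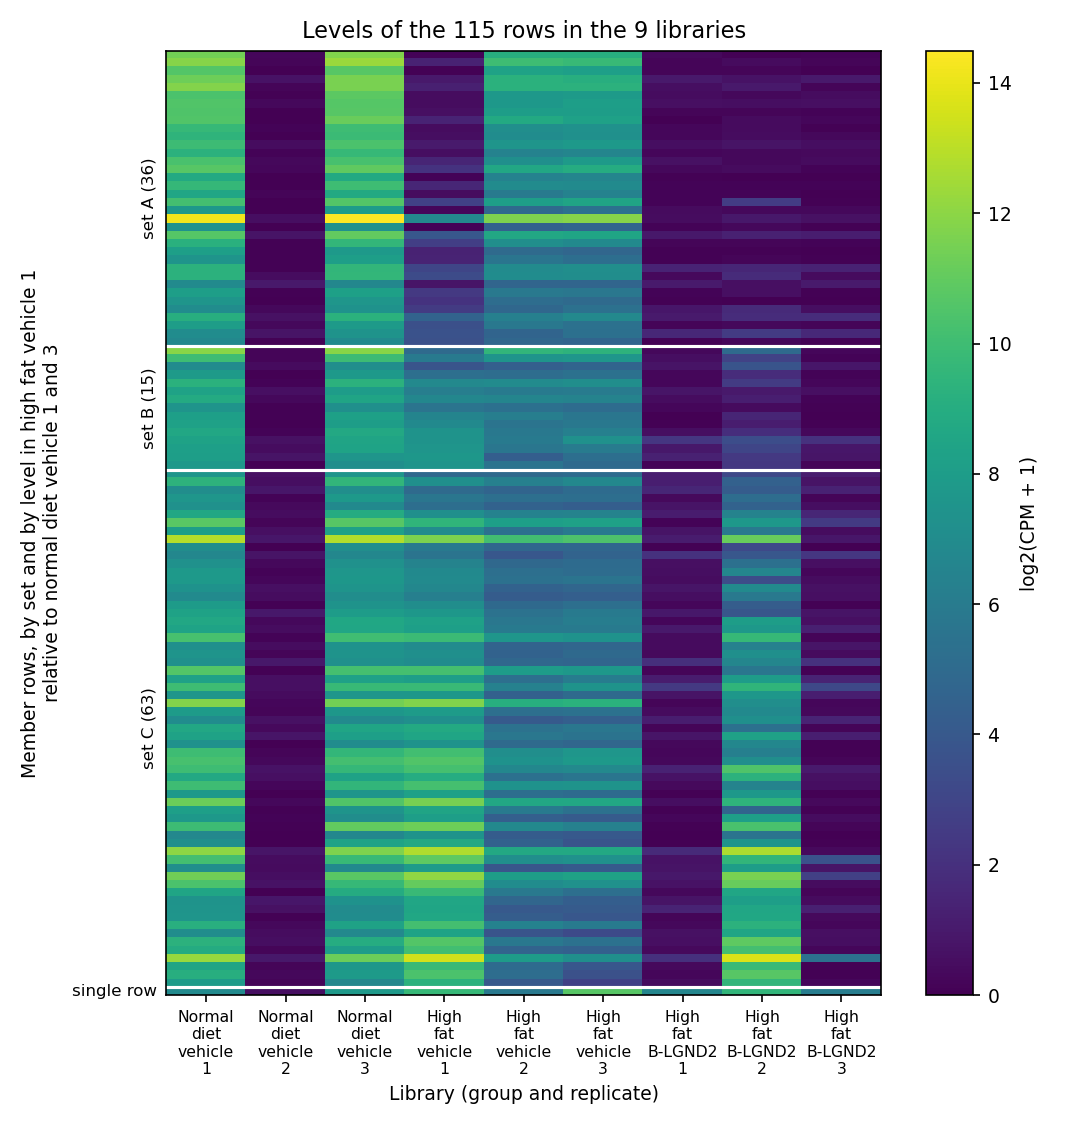
Colour gives log2(CPM + 1) of each of the 115 rows (vertical axis, grouped by set and ordered by the level in high fat vehicle replicate 1 relative to normal diet replicates 1 and 3) in each of the 9 libraries (horizontal axis). Normal diet replicate 2 and B-LGND2 replicates 1 and 3 are dark almost throughout, and set A (36 rows) is dark in high fat vehicle replicate 1 and B-LGND2 replicate 2 as well, where set C (63 rows) is not.

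The rows formed several sets. Linkage of their log2(CPM + 1) profiles over the 6 high fat libraries, cut at a Pearson r of 0.8, gave sets of 36, 15 and 63 rows, called A, B and C here, and 1 row that joined none. The normal diet libraries took no part in forming the sets, since they had fixed which rows were members. The sets themselves were made from the high fat values, so their levels in those libraries are a description. Over the 6 libraries the median r between 2 rows was 0.98 within set A (630 pairs), 0.96 within set B (105 pairs) and 0.96 within set C (1953 pairs). Between sets A and C it was 0.33, with 1.54% of 2268 pairs at 0.8 or more, and set B lay between them, at 0.73 with A and 0.73 with C. All these values share the 6 libraries.

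Set A was near zero in most rows in all 3 B-LGND2 libraries (32, 29 and 31 of 36 at or under 1 CPM) and low in high fat vehicle replicate 1, where 13 of 36 were. Its 36 rows had median levels of 664 and 894 CPM in normal diet replicates 1 and 3 and 0.0948 CPM in replicate 2. Among the high fat vehicle libraries, replicates 2 and 3 had medians of 130.3 and 139.6 CPM, and replicate 1 had 1.67 CPM. With B-LGND2 the medians were 0.197, 0.329 and 0.151 CPM. The summed share of set A was 1.05% and 1.11% in high fat vehicle replicates 2 and 3 against 0.0246% in replicate 1, so libraries of the same group differed widely in it.

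The most abundant of all members, GI 6754061, belongs to set A. It was at 18910 and 23058 CPM in normal diet replicates 1 and 3 and at 0.443 CPM, or 14 counts, in replicate 2. In the high fat vehicle libraries it was at 113.7, 3321 and 3788 CPM, and with B-LGND2 at 0.394, 0.920 and 0.556 CPM. All 3 B-LGND2 libraries lay below all 3 vehicle libraries, and high fat vehicle replicate 1 lay far below the other 2 of its group. The members whose profile was least like the median of the 115 over the high fat libraries were also in set A. GI 6678745 (r = 0.44 with that median over 6 libraries) was at 122.1, 0.980 and 101.8 CPM in the normal diet libraries, 0.771, 25.3 and 25.4 CPM in the high fat vehicle libraries and 1.06, 0.526 and 1.07 CPM with B-LGND2. GI 142358158 (r = 0.49) was at 1504, 0.253 and 1599 CPM, then 0.385, 212 and 281 CPM, then 0.517, 0.427 and 0.533 CPM in the same order. In both rows the groups overlapped: high fat vehicle replicate 1 was below all 3 B-LGND2 libraries in GI 142358158 and below 2 of the 3 in GI 6678745.

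Set B was intermediate. Its 15 rows had medians of 313 and 304 CPM in normal diet replicates 1 and 3, and of 103.4, 55.2 and 63.3 CPM in the high fat vehicle libraries. With B-LGND2 they were at 0.394, 4.14 and 0.185 CPM. In contrast to set A, this set was present in high fat vehicle replicate 1, at a summed share of 0.160% beside 0.165% and 0.172% in replicates 2 and 3. These similar sums hid unlike rows. The most abundant row of the set, GI 124301231, was at 31.1 CPM in replicate 1 against 738 and 657 CPM in replicates 2 and 3. The set median was highest in replicate 1. B-LGND2 replicate 2 held 0.00907%.

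Set C was the one that B-LGND2 replicate 2 retained. Its 63 rows had medians of 317 and 257 CPM in normal diet replicates 1 and 3, 358, 38.9 and 40.8 CPM in the high fat vehicle libraries and 0.444, 199 and 0.417 CPM with B-LGND2. The lowest of the 63 rows in B-LGND2 replicate 2 was at 7.92 CPM. In high fat vehicle replicate 1, 34 of the 63 rows were above both normal diet replicates 1 and 3, and in B-LGND2 replicate 2 there were 20 such rows, while in high fat vehicle replicate 2 no member was. The second most abundant member, GI 110347490, belongs to this set. It was at 7505, 0.822 and 7185 CPM in the normal diet libraries, 3211, 1108 and 1394 CPM in the high fat vehicle libraries and 1.13, 2237 and 0.812 CPM with B-LGND2. B-LGND2 replicate 2 lay inside the range of the vehicle libraries, and the other 2 lay far below it.

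The row that joined no set, GI 6679474, was singled out after its values were seen. It was at 119.4, 0.443 and 230.6 CPM in the normal diet libraries, 821, 56.5 and 1687 CPM in the high fat vehicle libraries and 101.5, 734 and 70.6 CPM with B-LGND2. It was the only member above both normal diet replicates 1 and 3 in high fat vehicle replicate 3, and it kept more than 50 CPM in every library except normal diet replicate 2. In B-LGND2 replicates 1 and 3, where the other members were low, this row alone made up 58.5% and 35.6% of the members' counts.

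**Figure D2:**
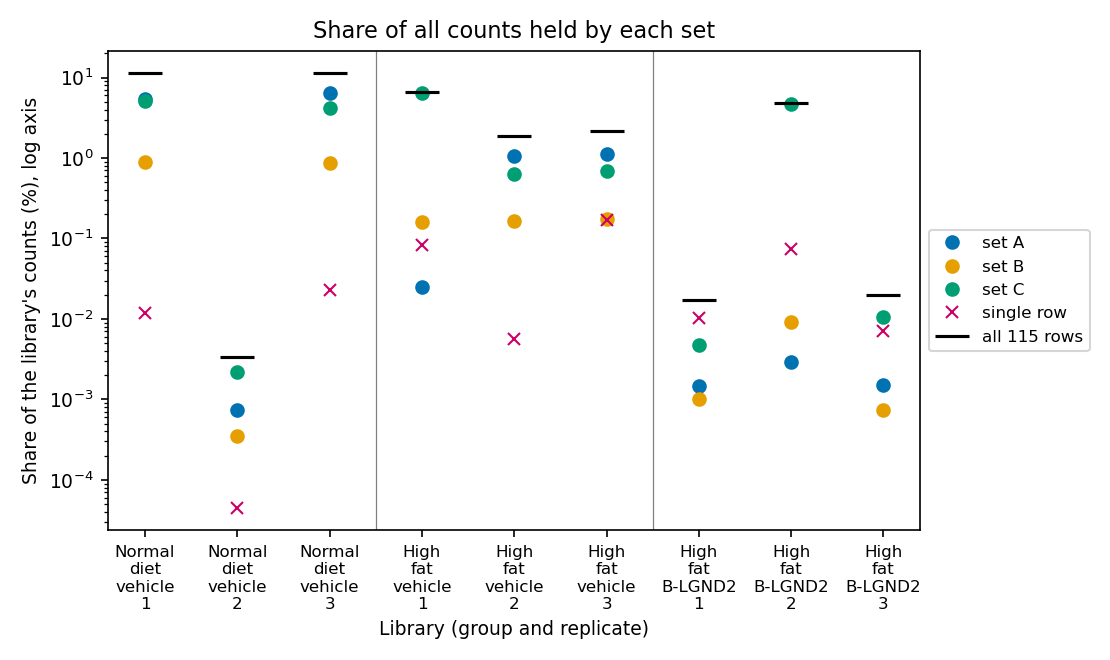
Each point is the share of a library's counts (vertical axis, percent, log axis) held by set A, set B, set C or the single row, and each dash the share of all 115 rows, in the 9 libraries (horizontal axis; grey lines separate the 3 groups). Sets A and C lie close together in normal diet replicates 1 and 3 and high fat vehicle replicates 2 and 3, whereas in high fat vehicle replicate 1 and B-LGND2 replicate 2 set C holds 6.38% and 4.71% and set A only 0.0246% and 0.00295%.

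The balance between the sets was similar in 4 of the libraries and different in a pair. The summed counts of set A were 1.06 and 1.56 times those of set C in normal diet replicates 1 and 3, and 1.64 and 1.60 times in high fat vehicle replicates 2 and 3. In high fat vehicle replicate 1 the ratio was 0.00386 and in B-LGND2 replicate 2 it was 0.000626. Set C made up 96.0% and 98.2% of the members' counts in that pair.

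In the first 4 libraries the members also kept their proportions row by row. The Pearson r of log2 share within the members, across 115 rows that are not independent replicates, was 0.97 between normal diet replicates 1 and 3, which the selection favours. High fat vehicle replicate 2, which took no part in the selection, had an r of 0.95 and 0.97 with them, and replicate 3 had 0.86 and 0.91. Between high fat vehicle replicates 2 and 3 it was 0.93. Within set A alone (36 rows) the values among these 4 libraries were 0.98 to 0.99, and within set C (63 rows) 0.89 to 0.96.

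In high fat vehicle replicates 2 and 3 most members fell short of the normal diet level by similar but not equal factors. Relative to the mean of normal diet replicates 1 and 3, the members had a median log2 ratio of -2.65 in high fat vehicle replicate 2 (6.26-fold lower), with 111 of 115 rows within 1 of that median. In replicate 3 the median was -2.52 (5.75-fold lower), with 104 rows within 1 of it. The ratios ran from -3.96 to -1.63 in replicate 2 and from -5.14 to 3.27 in replicate 3. In replicate 2 the medians of sets A, B and C were 5.49-fold, 5.45-fold and 7.19-fold lower. In replicate 3 they were 5.37-fold, 5.16-fold and 6.41-fold lower. All 115 rows were below both normal diet libraries in replicate 2 and 114 in replicate 3. As normal diet levels of at least 100 CPM were required by the selection, this direction is a description and was not tested.

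High fat vehicle replicate 1 and B-LGND2 replicate 2 resembled each other in the balance of the sets. Their r of log2 share was 0.89 across the 115 rows, while their r with the 4 libraries above ran from -0.18 to 0.02. Within the sets it was 0.57 in set A, -0.17 in set B and 0.82 in set C. Set C was not particular to the pair: within it high fat vehicle replicate 1 had an r of 0.86, 0.78, 0.73 and 0.60 with normal diet replicates 1 and 3 and high fat vehicle replicates 2 and 3, and B-LGND2 replicate 2 had 0.60, 0.52, 0.41 and 0.28. The pair differed in degree: 94 of 115 rows were lower in B-LGND2 replicate 2. The median difference was 1.44-fold in set C, 43.6-fold in set B and 3.72-fold in set A, where both libraries were already low. No row of set C was higher in B-LGND2 replicate 2 by more than 0.34 on the log2 scale. The sets therefore ran in a graded order, from set A, low in both libraries, through set B to set C, present in both. Most rows of set B were low in B-LGND2 replicate 2 only. In 2 of its 15 rows the pair lay within 1 on the log2 scale. GI 124301231 was among these, at 31.1 and 30.6 CPM. A stricter cut at an r of 0.9 divided set C along the same line, into 40 rows with a median of 338 CPM in B-LGND2 replicate 2 and 23 rows with a median of 39.8 CPM.

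**Figure D3:**
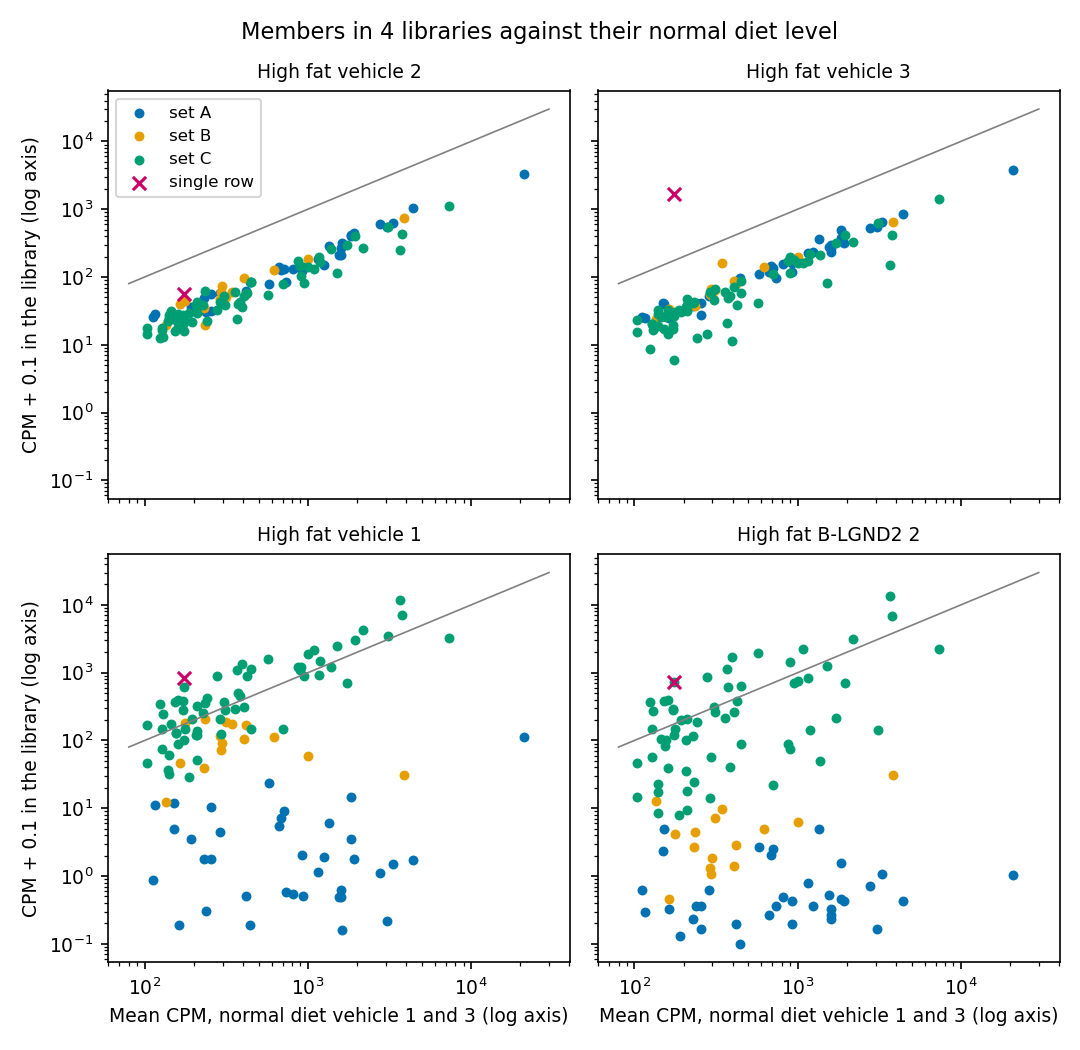
Each point is a member, with its mean CPM in normal diet replicates 1 and 3 on the horizontal axis and its CPM plus 0.1 in the named high fat library on the vertical axis (both log axes; the grey line marks equal levels), coloured by set. In high fat vehicle replicates 2 and 3 the members lie along a line below equality, with medians 6.26-fold and 5.75-fold lower, apart from the single row in replicate 3, whereas in high fat vehicle replicate 1 and B-LGND2 replicate 2 the sets separate.

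The small amounts left in normal diet replicate 2 and B-LGND2 replicates 1 and 3 had proportions of their own. There, 11, 2 and 2 of the 115 rows had 0 counts, and the summed counts were 1049, 7033 and 8552. The r of log2 share was 0.83 between B-LGND2 replicates 1 and 3, and 0.75 and 0.71 between these and normal diet replicate 2. With normal diet replicates 1 and 3 and high fat vehicle replicates 2 and 3, the values for these 3 libraries lay between -0.06 and 0.16. Within set A, B-LGND2 replicates 1 and 3 correlated at 0.81, and within set C at 0.78.

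B-LGND2 was compared with vehicle on the high fat diet in the 6 libraries whose values the rule did not read. The rule was nevertheless chosen with earlier results of these data known. The test was limma-voom with Benjamini-Hochberg adjustment over all 28091 rows tested. Of the 115 members 111 were tested; the other 4, all in set A, were too low in high fat vehicle replicate 1 and the B-LGND2 libraries to pass the filter on low counts. Members called lower with B-LGND2 at an adjusted p under 0.05 numbered 2, and 0 were called higher. Over all rows 3 were called, all lower, which is 0.0107% of those tested. Both called members were in set B and are named although they were found after their values were seen.

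GI 149259903 was at 72.5, 59.3 and 65.4 CPM with vehicle and 0.789, 0.986 and 0.487 CPM with B-LGND2. Its means were 65.7 ± 6.58 CPM (SD, n = 3) and 0.754 ± 0.251 CPM (SD, n = 3), and its fitted log2 difference was -6.39 ± 0.29 (SE; limma-voom adjusted p 0.00921). Its normal diet levels were 324, 0.537 and 262 CPM. GI 149259542 was at 47.1, 40.5 and 33.9 CPM with vehicle and 0.197, 0.362 and 0.0696 CPM with B-LGND2, the last being 3 counts. Its means were 40.5 ± 6.59 CPM (SD, n = 3) and 0.209 ± 0.146 CPM (SD, n = 3), with a fitted log2 difference of -7.68 ± 0.51 (SE; limma-voom adjusted p 0.0355). It was at 177.9, 0.0632 and 150.1 CPM on the normal diet. In both rows every B-LGND2 library was below every vehicle library.

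The other members had large fitted differences with wide errors. All 111 had a fitted log2 difference below 0, from -10.80 to -1.17 with a median of -5.73, whereas over all tested rows 51.2% were below 0 and the median was -0.015. At an unadjusted p under 0.05, 59 members were lower and 0 higher, beside 2.59% of all tested rows lower. The 3 B-LGND2 libraries were all below the 3 vehicle libraries in 59 of the 115 members, made up of 29 of 36 in set A, 14 of 15 in set B and 16 of 63 in set C; over all tested rows it was 6.09%. As the members vary together from library to library, these counts are not separate observations. In part they repeat that B-LGND2 replicates 1 and 3 held almost none of these rows. The count without overlap also needs a low B-LGND2 replicate 2, whose medians were 0.329, 4.14 and 199 CPM in sets A, B and C.

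By set, the median fitted log2 difference was -6.94 in set A (median SE 2.45), -7.10 in set B (0.94) and -4.65 in set C (2.31). GI 6754061 had -10.80 ± 1.53 (SE; limma-voom adjusted p 0.274). In set B, GI 124301231 had -7.69 ± 2.16 (SE; limma-voom adjusted p 0.655). GI 110347490 had -7.14 ± 3.27 (SE), GI 142358158 -5.73 ± 3.40, GI 6678745 -3.10 ± 1.56 and GI 6679474 -1.17 ± 1.38, whose adjusted p in limma-voom lay between 0.719 and 0.791.

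The number of calls changed with the libraries in the fit, while the differences of the 2 called rows stayed about as large. When each high fat library was left out in turn, the fitted log2 difference of GI 149259903 lay between -6.53 and -6.13 and that of GI 149259542 between -8.11 and -7.10. Without high fat vehicle replicate 1, in which set A was low, 33 of 115 members were called lower. Of all 28726 rows tested in that fit, members included, 52 were called lower (0.181%). Without B-LGND2 replicate 2, in which set C was present, 9 of 115 were called lower. Of all 29135 rows tested in that fit, members included, 12 were called lower (0.0412%). Without high fat vehicle replicate 2 or 3, or B-LGND2 replicate 1 or 3, 0 members were called, and the smallest adjusted p by limma-voom was 0.0639, 0.0777, 0.234 and 0.120. At an unadjusted p under 0.05, 54, 50, 40 and 40 members were lower in these fits, beside 11.5%, 4.08%, 1.44% and 1.2% of all rows tested. With all 9 libraries in the fit, 0 of 115 members were called. At an unadjusted p under 0.05, 1 was lower, beside 1.69% of all rows tested. The rule itself required a wide gap between normal diet libraries, and the fit pools the spread of all groups. The SE of GI 149259903 rose from 0.29 to 2.85 and that of GI 149259542 from 0.51 to 3.65. Over all 28831 rows tested in this fit 0 were called as well, members or not. What caused the loss of calls was not tested, and the members' calls in this fit are not read as a result about B-LGND2.

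**Figure D4:**
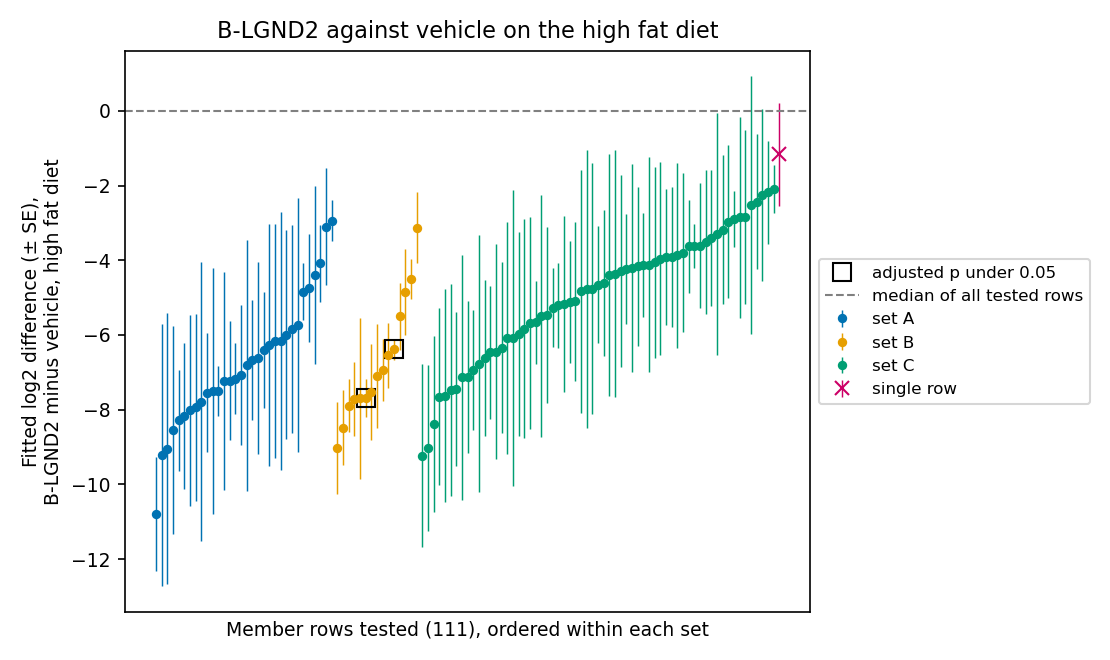
Points give the fitted log2 difference between B-LGND2 and vehicle on the high fat diet (vertical axis, limma-voom, bars are ± SE) for the 111 members tested, ordered by size within each set along the horizontal axis. All lie below the dashed line, the median of all tested rows at -0.015, and squares mark the 2 called rows, both in set B, the set with the smallest median SE (0.94).

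Inside the limits, the lowest value in normal diet replicates 1 and 3 was 101.8 CPM and the highest in replicate 2 was 0.980 CPM. Just outside, rows lay at 99.9 CPM and at 1.01 CPM. With the lower limit at 30 or 10 CPM, 214 and 386 rows met the rule, of which 70.6% and 60.4% were also at or under 1 CPM in B-LGND2 replicates 1 and 3, compared with 75.7% of the 115. Raising the upper limit in normal diet replicate 2 to 2 or 5 CPM gave 132 and 152 rows, of which 88 in each case were at or under 1 CPM in B-LGND2 replicates 1 and 3 (66.7% and 57.9%), beside 87 of the 115. The same rule applied to each other library within its own group found 7 rows for high fat vehicle replicate 1, all of them in set A, and 0 for each of the other 7 libraries. For normal diet replicates 1 and 3 and the B-LGND2 libraries it could find no member. There it asked for 100 CPM in another library of the group that held almost none of them.

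Rows at or under 1 CPM in all 3 of normal diet replicate 2 and B-LGND2 replicates 1 and 3, and at 100 CPM or more in at least 1 other library, numbered 114. Of these, 87 were members and 27 were not. Those 27 were all under 100 CPM in normal diet replicate 1 or 3, which the rule fixes for rows that are not members. Of them 23 were highest in high fat vehicle replicate 1 (9 rows) or B-LGND2 replicate 2 (14 rows), the libraries in which set C was high. A stricter rule in the opposite direction asked for 100 CPM or more in normal diet replicate 2 and B-LGND2 replicates 1 and 3. It also asked for at most 1 CPM in all of the other 6, and found 0 rows. As it asks more of the libraries, this 0 cannot be set against the 114.

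Among rows that were not members, 180 of 38928 had an r of at least 0.95 with the median profile of all members over the 6 high fat libraries, 206 with that of set A, 135 with that of set B and 518 with that of set C. Normal diet replicate 2 took no part in this likeness. Of the 391 rows like set C that reached 10 CPM in any of the 6 libraries in which the members were present, 385 were lower in normal diet replicate 2 than in replicates 1 and 3. For sets A and B this held in 62 of 84 and 54 of 56 rows. The limit of 10 CPM read normal diet replicates 1 and 3 too, which favours that direction, so these counts are a description. The share of all rows with that direction is not given here, and normal diet replicate 2 had the fewest rows at 1 CPM (18393). Whether the direction is particular to rows like the members can therefore not be told. These rows were low rather than absent: those like set C had medians of 56.1, 4.39 and 55.2 CPM in the normal diet libraries.

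GI numbers were issued in order of entry, and 11 members had another member within 10 numbers, in 6 neighbouring pairs. In 5 pairs both rows were in the same set, with r of 0.95 to 1.00 over the high fat libraries, and in 1 pair a row of set B neighboured a row of set C (r = 0.82). How the counting treated reads shared by such rows is not stated, so values of neighbouring rows are uncertain.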

How the data were processed

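The deposited table holds raw counts of reads per GI number in 9 libraries, 1 column each, made by the authors; the column names are the numbers in the labels' titles. The sequencer was an Ion Proton and the RNA was poly(A) enriched, per the labels' protocols. STAR 2.5.2 and build mm9 are named in the submitters' processing notes, with no role. The counter, its annotation and its strand setting: not given in the sources used here.

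CPM are counts divided by the library total and scaled to a common total. Rows entered the test with a CPM equal to 10 counts at median depth in 3 or more libraries and a total of at least 15 counts; 11039 rows did not. Limma-voom (limma 3.58.1, R 4.3.3, two-sided, threshold 0.05) used TMM-scaled totals of the 6 high fat libraries. It replaced the planned quasi-likelihood count test, because the automated unit check could not read this file. The fit was also run on simulated counts, with the same moderate spread for every row and changes smaller than those of most members. That run did not hold the wide differences between libraries of a group seen in the members, so it does not cover them. Figures were drawn with matplotlib 3.10.9.

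The members and all rules were chosen with earlier results of these data known. Rows named are the 2 most abundant members and the 2 least like the median profile. Marker lists could not be used without gene names.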

Additional observations from a re-analysis of the deposited data

How the results depend on the processing

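Under the alternatives 178 values were recomputed. Of the counts, shares and median log2 differences, 79 stayed the same and 15, all of them counts, were marked as moved. Of the log2 differences of the named rows, 69 stayed the same, 11 lost their call as lower and 4 gained one. Counts and shares cannot change sign, so only the log2 differences could reverse, and 0 of these did. Among the members not named, 1 had a log2 difference above 0 (0.12) without B-LGND2 replicate 1. Members called lower with B-LGND2 numbered 2 in limma-voom under every scaling tried and without a filter, 4 with limma-trend (added after the data were seen), 0 with all 9 libraries, and 0 to 33 when each high fat library was left out. The median log2 difference over the members tested ranged from -7.41 to -4.71 when each was left out. For GI 149259903 and GI 149259542 the adjusted p ranged from 0.00553 to 0.815 and from 0.00999 to 0.815 over all alternatives in limma. In each row the 0.815 came from the fit of all 9 libraries, which includes the gap between normal diet libraries that the rule required. Their log2 differences ranged from -6.53 to -5.67 and from -8.11 to -5.81. Requiring 200 CPM in normal diet replicates 1 and 3 left 75 members. With 5 CPM as near zero, 26 members were near zero in high fat vehicle replicate 1, the same number in all 4 libraries compared, and 1 in none of them; with 0.5 CPM, 34 were in none. The number of sets was 5 at a linkage cut of 0.9 and with complete linkage; the 36 rows of set A stayed together in both, joined by 1 row of set B with complete linkage. Other choices gave 2 sets: a cut of 0.7 merged sets A and B (51 rows), and all 9 libraries placed 14 rows of set B and 5 of set A with set C. What causes these shifts was not tested. With 3 libraries per group, and shares from 0.0173% to 4.80% within the B-LGND2 group, the spread between libraries was wide. Depth limited the lowest levels: 11 members in normal diet replicate 2, and 2, 1 and 2 in B-LGND2 replicates 1 to 3, had 0 counts. The planned negative binomial tests were not run. No paired analysis was possible because the labels pair no libraries.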
